A study of Mus musculus with 10 samples.

Results

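The genes described here mark the path from oligodendrocyte progenitor to newly formed oligodendrocyte. They are Pdgfra, Vcan and Ptprz1 of progenitors, the lineage transcription factors Olig1, Olig2 and Sox10, and Gpr17, Bmp4, Enpp6 and Bcas1 of committed precursors and newly formed cells. They were chosen by name, and all 10 were found among the 56884 genes of the count table and had enough counts to be tested, as did 17622 genes in all. RNA-seq was performed on hippocampi of 10 ovary-intact P301S (PS19) females, 5 with a void implant (an empty SILASTIC tube) and 5 with an implant holding 10 mm of dihydrotestosterone (DHT), an androgen that aromatase cannot convert to estrogen. All 10 carried the hTau transgene, human 1N4R Tau with the P301S mutation under the mouse Prnp promoter, so there was no animal without tauopathy. Implants were given at 6 months of age for 12 weeks, and tissue was collected at 9 to 9.5 months. The comparison asks which transcripts androgen changes in the female tauopathy hippocampus.

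Oligodendrocyte progenitors persist through adult life in grey and white matter. They divide in response to platelet-derived growth factor through PDGFRA, and those that leave the cycle pass through a short-lived GPR17-positive stage before they switch on ENPP6 and BCAS1 and begin to wrap axons. OLIG2 and SOX10 act throughout the lineage, whereas BMP signalling and Notch signalling hold differentiation back.

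In these data 1 gene of the 10, Enpp6, was called higher with DHT, though not under every alternative. The progenitor genes Pdgfra and Ptprz1 were nearly level between the groups. Enpp6, a choline-specific phosphodiesterase of newly formed oligodendrocytes, was 1.42-fold higher in DHT-treated females, at 14.6 ± 1.20 CPM (counts scaled to library size; SD, n = 5) against 10.3 ± 2.18 (SD, n = 5) in void-treated females. Pdgfra, the progenitor receptor, was at 82.6 ± 3.57 CPM with DHT and 81.7 ± 6.47 with void (SD, n = 5 each). Genes passed where edgeR's quasi-likelihood p, adjusted by Benjamini-Hochberg over all genes tested, was under 0.05. Of all genes tested, 5.22% were higher by this rule and 0.261% were lower, so 1 of 10 higher and 0 of 10 lower is near what the whole table gave. DESeq2 also called Enpp6 alone. The edgeR call of Enpp6 held in 2 of 10 fits that left out 1 mouse. It was lost with DESeq2 size factors in edgeR (adjusted p = 0.0569) and with the choroid plexus covariate, under which no gene passed. In the main fit 2 of the 10 genes, Enpp6 and Bmp4, had an unadjusted p under 0.05 and a higher level with DHT, as did 13.1% of all genes. The groups overlapped for all 10 genes, where 5.39% of all genes had every DHT-treated mouse above every void-treated mouse and 0.88% the opposite. With a log2 fold change beyond 1 required as well, 2.17% of all genes were higher, 0.0227% were lower, and none of the 10 was called by edgeR. All 10 log2 fold changes were above 0, with a median of 0.17, where 52.4% of all genes were above 0 and the median of all genes was 0.00937. This direction did not hold under every alternative, since Pdgfra was below 0 with DESeq2, its size factors or the fibroblast covariate, Olig1, Olig2, Gpr17 and Bcas1 were below 0 with the choroid plexus covariate, and Pdgfra and Ptprz1 turned with single mice left out.

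**Figure D1:**
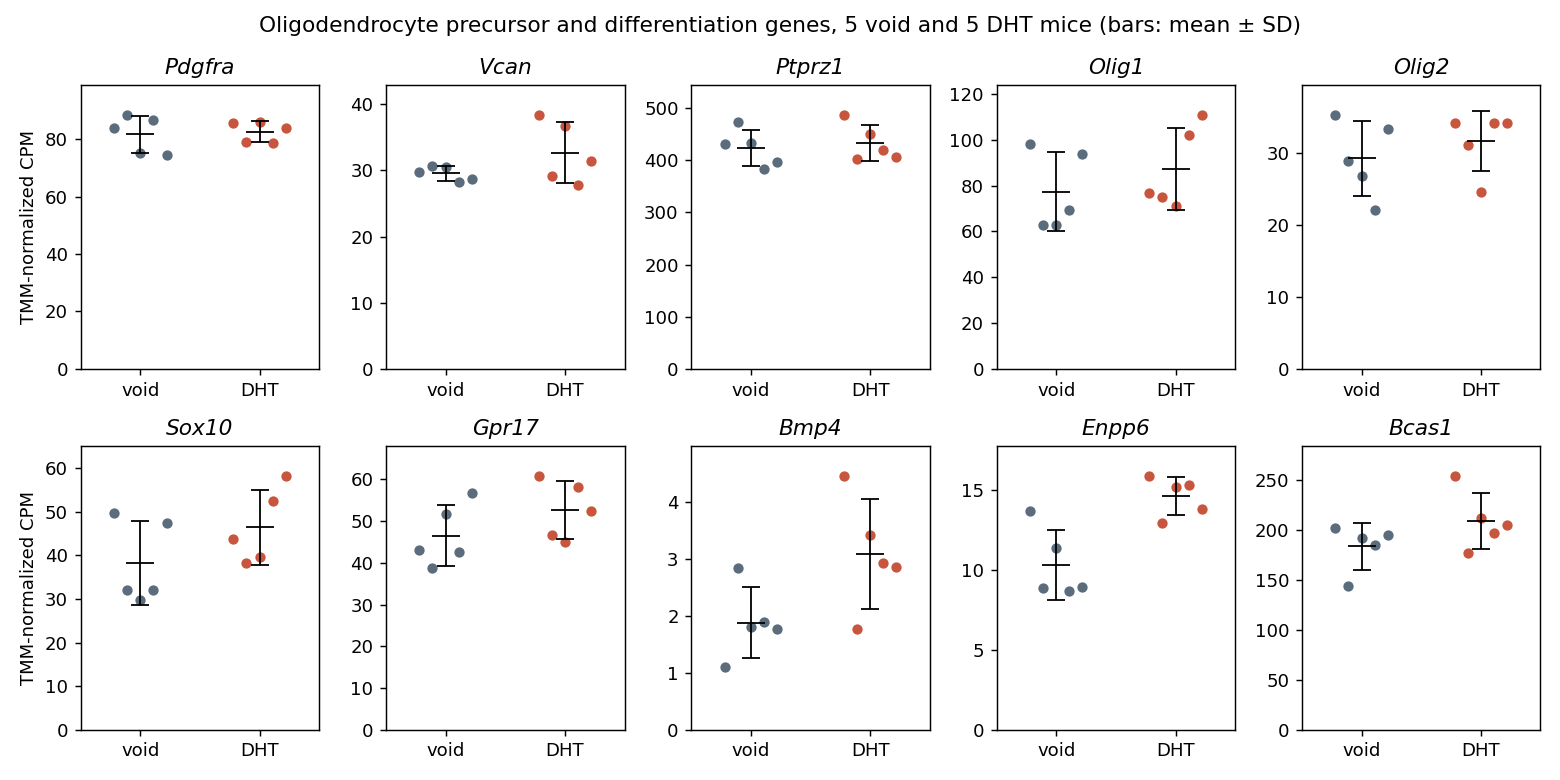
TMM-normalized CPM of the 10 genes on linear axes that start at 0, with 1 point per mouse and the mean ± SD of 5 void and 5 DHT mice. Pdgfra lies between 74.7 and 88.3 CPM in all 10 mice, while 4 of 5 DHT-treated mice lie above every void-treated mouse for Enpp6 and for Bmp4.

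The promoters of 3 genes are shown because the results set them apart: Pdgfra, which was nearly level, and Enpp6 and Bmp4, the genes with the lowest p. Each window runs from 250 bases before to 50 bases after the RefSeq start of transcription on build GRCm38.p6, and 6 of the 10 genes have a promoter in that table. Capitals mark the E-box CANNTG, the motif that basic helix-loop-helix factors such as OLIG2 recognize, which reads the same on both strands.
Pdgfra, chr5:75152001-75152300, plus strand: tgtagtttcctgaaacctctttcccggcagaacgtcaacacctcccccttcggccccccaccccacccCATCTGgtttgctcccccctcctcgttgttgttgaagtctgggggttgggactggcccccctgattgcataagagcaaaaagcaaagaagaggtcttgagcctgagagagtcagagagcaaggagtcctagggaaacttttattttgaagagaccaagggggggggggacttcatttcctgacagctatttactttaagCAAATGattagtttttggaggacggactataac
Enpp6, chr8:46986637-46986936, plus strand: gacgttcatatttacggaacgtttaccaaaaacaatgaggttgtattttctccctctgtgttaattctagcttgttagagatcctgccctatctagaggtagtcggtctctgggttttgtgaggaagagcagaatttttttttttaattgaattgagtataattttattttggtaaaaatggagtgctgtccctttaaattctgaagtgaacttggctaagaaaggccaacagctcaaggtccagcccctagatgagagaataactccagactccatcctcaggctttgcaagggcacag
Bmp4, chr14:46390620-46390919, minus strand: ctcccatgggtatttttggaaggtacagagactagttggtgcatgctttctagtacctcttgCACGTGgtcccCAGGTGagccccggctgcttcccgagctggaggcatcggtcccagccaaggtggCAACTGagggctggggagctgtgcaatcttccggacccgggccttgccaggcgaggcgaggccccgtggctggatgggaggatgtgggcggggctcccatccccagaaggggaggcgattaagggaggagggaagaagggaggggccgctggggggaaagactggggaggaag

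The E-box was found 2 times in the Pdgfra window, 3 times in that of Bmp4 and not in that of Enpp6, and 72.3% of 32851 promoter windows of this length hold at least 1. The SOX motif ACAAAG, the androgen receptor half-site AGAACA and the nuclear receptor half-site AGGTCA were searched on both strands and matched in none of the 6 windows, against 18.7%, 19% and 16.3% of all windows. The Enpp6 window was 40.3% G and C, above 10.7% of all promoter windows, while those of Pdgfra and Bmp4 were 51% and 64%, above 43.0% and 79.7%.

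Levels per kilobase of exon place the genes on 1 scale. In void-treated mice the order of mean CPM per kilobase was Bcas1 (48.7), Olig1 (35.8), Ptprz1 (29.7), Sox10 (12.5), Olig2 (11.6), Gpr17 (8.96), Pdgfra (8.15), Vcan (2.04), Enpp6 (1.60) and Bmp4 (0.837). The ranges of neighbours over the 5 mice overlapped except between Ptprz1 and Sox10, between Pdgfra and Vcan, and between Enpp6 and Bmp4. Exon lengths came from an older annotation release than the counts, so the order is approximate. Bmp4 rested on 30 to 163 reads per mouse and Enpp6 on 272 to 723, while Ptprz1 had 11703 to 21461.

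Pdgfra was at 83.9, 88.3, 75.0, 86.7 and 74.7 CPM in void replicates 10, 11, 4, 5 and 9, and at 85.7, 78.9, 86.0, 78.8 and 83.8 CPM in DHT replicates 1, 2, 3, 5 and 6. The highest and the lowest mouse were both void-treated. Void replicates 11 and 5 and DHT replicate 3 were highest for Pdgfra. They also had the highest summed fibroblast markers, at 162, 154 and 169 CPM. The source of the Pdgfra reads was not tested. Its log2 fold change was 0.02 (adjusted p = 0.942 by edgeR, standard error 0.06). The 95% interval ran from -0.12 to 0.15, the narrowest among the 10 genes. In this fit it leaves room for a change of at most 1.11-fold upward. With the choroid plexus level as a covariate the log2 fold change was 0.19 (adjusted p = 0.797 by edgeR, standard error 0.09), above that interval. In hippocampal tissue a lower number of cells of a type and less RNA per cell cannot be told apart.

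Ptprz1 encodes a receptor-type phosphatase for pleiotrophin that progenitors share with astrocytes. It was at 432, 472, 433, 383 and 396 CPM in void replicates 10, 11, 4, 5 and 9, and at 486, 403, 450, 420 and 405 CPM in DHT replicates 1, 2, 3, 5 and 6. The groups covered nearly the same range, and the log2 fold change was 0.03 (adjusted p = 0.893 by edgeR, standard error 0.07), with a 95% interval from -0.13 to 0.19.

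Vcan encodes versican, a chondroitin sulfate proteoglycan that progenitors lay down in the matrix. It was at 29.8, 30.6, 30.5, 28.2 and 28.6 CPM in void replicates 10, 11, 4, 5 and 9, and at 38.3, 29.1, 36.7, 27.8 and 31.5 CPM in DHT replicates 1, 2, 3, 5 and 6. DHT replicates 1 and 3 were high, and the others lay within or close to the void range. The coefficient of variation was 14.2% with DHT and 3.73% with void. Its fitted log2 fold change was 0.15 (adjusted p = 0.473 by edgeR, standard error 0.09) and became 0.05 without DHT replicate 1 and 0.08 without DHT replicate 3.

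In void-treated mice the coefficients of variation of the transcription factors ran from 17.9% to 25.2%, above those of the progenitor genes, whereas with DHT that of Olig2 (13.2%) was below that of Vcan (14.2%). Sox10, which drives the myelin program, was at 49.8, 32.0, 29.8, 32.0 and 47.6 CPM in void replicates 10, 11, 4, 5 and 9. In DHT replicates 1, 2, 3, 5 and 6 it was at 43.7, 38.3, 39.6, 52.4 and 58.2 CPM. Void replicates 10 and 9 and DHT replicates 5 and 6 were the 4 highest mice. Sox10 had a log2 fold change of 0.28 (adjusted p = 0.450 by edgeR, standard error 0.17), with a 95% interval from -0.08 to 0.65. It was 0.19 without DHT replicate 6 and 0.39 without void replicate 10. With the fibroblast covariate it was 0.44 (adjusted p = 0.0892, edgeR), and with the choroid plexus covariate 0.04 (adjusted p = 0.997).

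Olig1, a basic helix-loop-helix factor needed for maturation and repair, was at 98.3, 62.9, 62.7, 69.2 and 93.9 CPM in void replicates 10, 11, 4, 5 and 9, and at 76.8, 75.1, 71.0, 102 and 111 CPM in DHT replicates 1, 2, 3, 5 and 6. The same 4 mice were highest as for Sox10. Its log2 fold change was 0.17 (adjusted p = 0.680 by edgeR, standard error 0.16). It was 0.08 without void replicate 11, 0.10 without void replicate 4, 0.07 without either DHT replicate 5 or DHT replicate 6, and 0.27 without void replicate 10. With the fibroblast covariate it was 0.32 (adjusted p = 0.208, edgeR), and with the choroid plexus covariate -0.03 (adjusted p = 0.997). Olig2, the related factor that specifies the lineage, was at 35.3, 28.9, 26.8, 22.1 and 33.3 CPM in void replicates 10, 11, 4, 5 and 9, and at 34.2, 31.1, 24.6, 34.2 and 34.2 CPM in DHT replicates 1, 2, 3, 5 and 6. The groups overlapped almost completely, and the fitted log2 fold change was 0.11 (adjusted p = 0.743 by edgeR, standard error 0.13). It was 0.03 without void replicate 5, 0.05 without either DHT replicate 1 or DHT replicate 5, and 0.19 without void replicate 10.

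These 3 genes are rich in G and C, at 61.1% for Olig1, 58.5% for Olig2 and 61.8% for Sox10 in the longest annotated transcript, above 97.3%, 92.3% and 98.0% of the genes tested. The libraries differed in the level of such genes. The mean log2 deviation of the 25% of genes with the highest GC content, minus that of the 25% with the lowest, was 0.03, -0.13, -0.22, -0.17 and 0.24 in void replicates 10, 11, 4, 5 and 9. In DHT replicates 1, 2, 3, 5 and 6 it was -0.12, -0.17, -0.24, 0.30 and 0.49. The 4 libraries above 0 were the 4 with the highest Sox10 and Olig1, but not Olig2, for which DHT replicate 1 was above void replicate 9. The groups did not differ in this measure beyond the mouse-to-mouse spread (p = 0.556, exact permutation test, two-sided, n = 5 each). With offsets for GC content, chosen after seeing the data, the standard error fell to 0.08 for Olig1 and 0.09 for Sox10. The log2 fold changes were then 0.10 for Olig1, 0.06 for Olig2 and 0.22 for Sox10, with adjusted p values of 0.479, 0.779 and 0.164 (edgeR). Pdgfra, with 48.1% GC, did not share the pattern of the 4 mice.

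**Figure D2:**
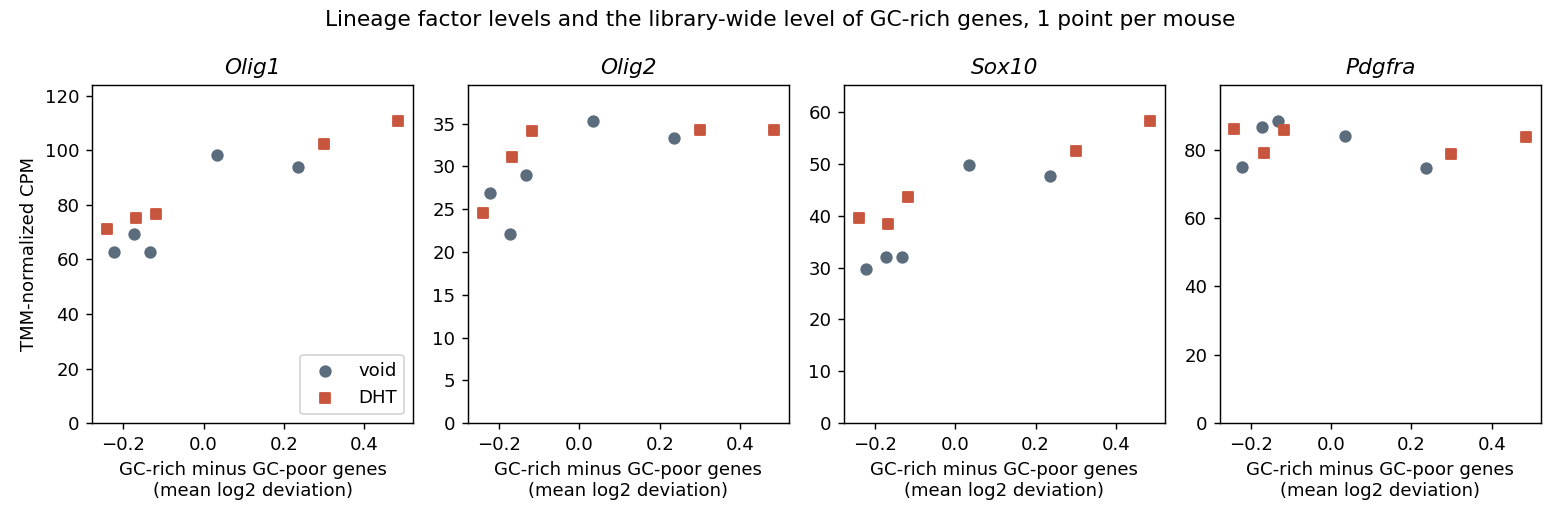
TMM-normalized CPM of Olig1, Olig2, Sox10 and Pdgfra (vertical axes, starting at 0) against the mean log2 deviation of GC-rich minus GC-poor genes in each library (horizontal axes), with 1 point per mouse, circles for void and squares for DHT. Olig1 and Sox10 are highest in the 4 libraries to the right of 0, and Pdgfra stays between 74.7 and 88.3 CPM along the whole axis.

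Of the genes of later stages, Gpr17 encodes a receptor that committed precursors express for a short time and that delays their maturation. It was at 43.0, 38.6, 51.7, 42.7 and 56.6 CPM in void replicates 10, 11, 4, 5 and 9, and at 60.8, 46.8, 45.1, 58.2 and 52.4 CPM in DHT replicates 1, 2, 3, 5 and 6. DHT replicates 1 and 5 lay just above the highest void-treated mouse. The log2 fold change was 0.18 (adjusted p = 0.503 by edgeR, standard error 0.12), with a 95% interval from -0.08 to 0.43. It was 0.09 without either DHT replicate 1 or void replicate 11, 0.10 without DHT replicate 5, and 0.26 without void replicate 9. Gpr17 shares 188 exonic bases with Lims2 on the opposite strand, and the handling of strand in the counting is not stated. Lims2 reached at most 8.43 CPM.

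Bcas1, a marker of early myelinating oligodendrocytes that stays on in mature cells, was at 202, 144, 192, 185 and 195 CPM in void replicates 10, 11, 4, 5 and 9. In DHT replicates 1, 2, 3, 5 and 6 it was at 254, 177, 212, 197 and 205 CPM. Void replicate 11 was low and DHT replicate 1 was high, and the other 8 mice lay between 177 and 212 CPM. Bcas1 had a log2 fold change of 0.19 (adjusted p = 0.425 by edgeR, standard error 0.11), and it was 0.07 without DHT replicate 1 and 0.08 without void replicate 11.

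Bmp4 encodes a secreted ligand that committed precursors make and that turns progenitors away from the oligodendrocyte fate. It was at 1.11, 2.85, 1.80, 1.89 and 1.77 CPM in void replicates 10, 11, 4, 5 and 9, and at 4.45, 1.78, 3.41, 2.93 and 2.86 CPM in DHT replicates 1, 2, 3, 5 and 6. In this gene 4 of 5 DHT-treated mice were above every void-treated mouse, and DHT replicate 2 lay among the void-treated mice. The log2 fold change was 0.71 (unadjusted p = 0.0193 and adjusted p = 0.167 by edgeR, standard error 0.26), with a 95% interval from 0.14 to 1.28. It did not pass in any of the 18 alternative fits, in which the adjusted p ranged from 0.0609 to 0.797.

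Enpp6 was at 13.7, 8.84, 11.4, 8.69 and 8.90 CPM in void replicates 10, 11, 4, 5 and 9. In DHT replicates 1, 2, 3, 5 and 6 it was at 15.8, 12.9, 15.1, 15.3 and 13.8 CPM. All 5 DHT-treated mice were above the median of the void-treated mice and 4 were above every one of them, with void replicate 10 above DHT replicate 2. The log2 fold change was 0.51 (adjusted p = 0.0424 by edgeR, standard error 0.13), with a 95% interval from 0.22 to 0.79. Enpp6 had the 853rd lowest p among genes above 0, close to the end of the 920 genes called higher. With GC content offsets the adjusted p was 0.0318, and with DESeq2 it was 0.00941. The call was lost with DESeq2 size factors in edgeR (adjusted p = 0.0569) and with the choroid plexus level as a covariate (adjusted p = 0.853). That covariate differs between the groups, and no gene of the whole table passed with it (lowest adjusted p = 0.625, edgeR). Its loss is therefore not particular to Enpp6. With 1 mouse left out, the call held only without void replicate 10 or DHT replicate 2. The adjusted p was 0.159, 0.0697, 0.0886 and 0.0795 without void replicates 11, 4, 5 and 9, and 0.157, 0.110, 0.124 and 0.0606 without DHT replicates 1, 3, 5 and 6. The log2 fold change stayed between 0.43 and 0.63 in these 10 fits.

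**Figure D3:**
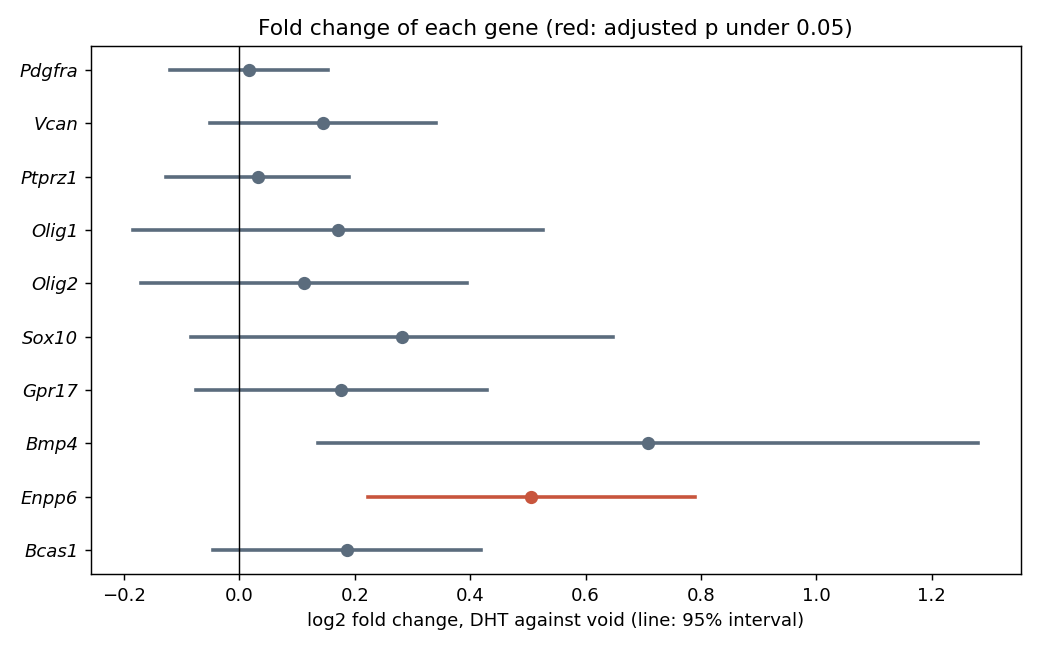
Log2 fold change of each gene, DHT against void, with its 95% interval from edgeR's quasi-likelihood fit (5 mice per group). Enpp6, in red, has an adjusted p under 0.05, the interval of Bmp4 also lies above 0, and the intervals of Pdgfra and Ptprz1 are the narrowest and centre close to 0.

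Within the same animal, the later genes were set against Pdgfra as a log2 ratio of CPM, which does not depend on library scaling. Which cells the Pdgfra and Bmp4 reads came from was not tested, so the ratios compare genes and not stages as such. The Enpp6 to Pdgfra ratio was -2.61, -3.31, -2.72, -3.31 and -3.06 in void replicates 10, 11, 4, 5 and 9, and -2.43, -2.60, -2.50, -2.36 and -2.60 in DHT replicates 1, 2, 3, 5 and 6. The lowest DHT-treated mouse exceeded the highest void-treated mouse, although void replicate 10 and DHT replicate 2 were nearly level. The difference was 0.50, with a two-sided exact permutation p of 0.00794, the smallest that 5 mice against 5 allow. The share of all genes whose ratio to Pdgfra lies apart in this way was not counted. For levels of single genes, 5.39% of all genes had every DHT-treated mouse above every void-treated mouse. The Bmp4 to Pdgfra ratio was 0.68 higher with DHT (exact permutation p = 0.0397, two-sided), with 4 of 5 DHT-treated mice above every void-treated mouse. It had a p under 0.05 in 2 of 10 sets that left out 1 mouse, those without void replicate 11 (p = 0.0317) or DHT replicate 2 (p = 0.0159), both exact permutation tests. In the other sets p ranged from 0.0556 to 0.0714. The Gpr17 and Bcas1 ratios were 0.16 and 0.17 higher, within the spread between mice (exact permutation p = 0.365 and 0.302, two-sided). Without void replicate 11 these differences were 0.07 for Gpr17 and 0.05 for Bcas1. The Gpr17 ratio was also 0.11 without DHT replicate 5 and 0.27 without void replicate 9, and that of Bcas1 was 0.11 without DHT replicate 1. These are 4 ratios with p values not adjusted for their number, and the Enpp6 and Bmp4 genes had been seen to be higher in the same mice.

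**Figure D4:**
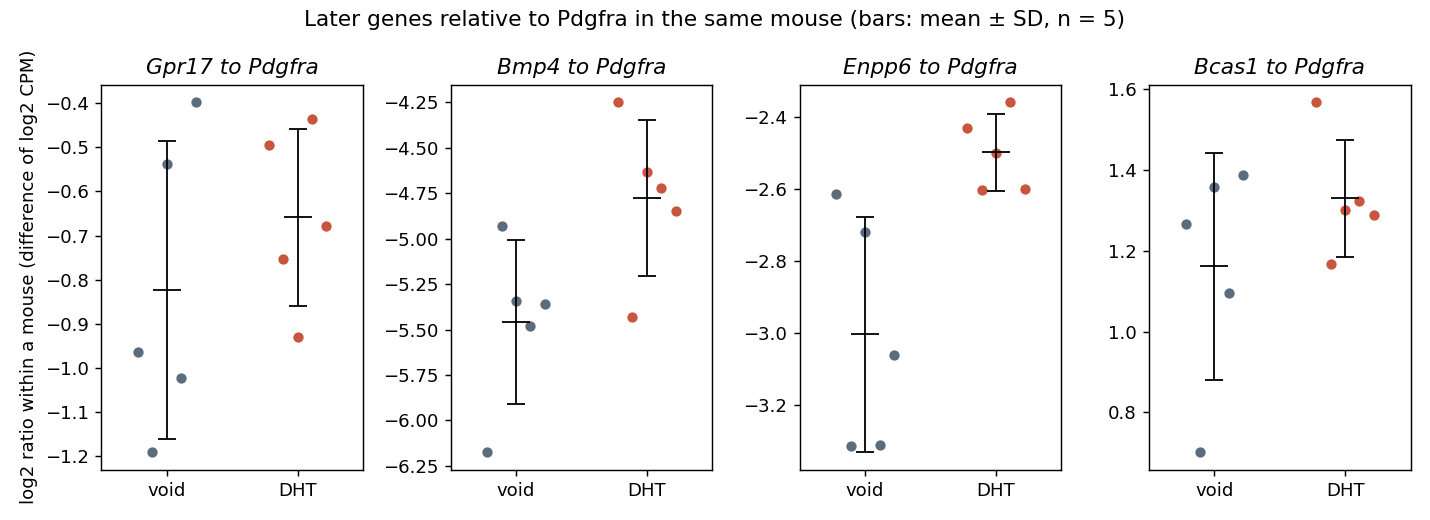
Log2 ratio of Gpr17, Bmp4, Enpp6 and Bcas1 to Pdgfra within each mouse (difference of log2 CPM), 1 point per mouse, with the mean ± SD of 5 mice per group and an axis of its own for each ratio. The Enpp6 ratio is the one in which the groups do not overlap, with void replicate 10 at -2.61 and DHT replicate 2 at -2.60.

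The rest of the lineage was followed with lists. Of 18 other progenitor genes, among them Cspg4 (NG2), Sox6 and Tnr, 0 passed edgeR's test or DESeq2's in either direction and 1 had an unadjusted p under 0.05. Their median log2 fold change was 0.05. The lowest p values were those of Nkx2-2, a factor that promotes differentiation (log2 fold change 0.28, adjusted p = 0.210), and Mmp15 (0.35, adjusted p = 0.340). Of 18 other differentiation genes, 0 passed in edgeR or DESeq2, 1 had an unadjusted p under 0.05, and the median was 0.03. The lowest p values there were those of Nkx6-2, a factor of myelinating cells (0.51, adjusted p = 0.207), and Sirt2 (0.19, adjusted p = 0.374). With GC content offsets Nkx6-2 passed (adjusted p = 0.0477, edgeR).

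Of 18 genes of myelin and mature oligodendrocytes, 17 had a log2 fold change above 0, against 52.4% of all genes, with a median of 0.19, close to the median of 0.17 over the 10 genes. None passed in edgeR or DESeq2 with all 10 mice, and 7 had an unadjusted p under 0.05, where 13.1% of all genes had one and were higher. Cldn11, the tight junction protein of myelin, averaged 111 ± 18.9 CPM in void-treated and 141 ± 12.7 CPM in DHT-treated females (SD, n = 5 each), for a fitted log2 change of 0.35 with an adjusted p of 0.0878 (edgeR). Tspan2 had a log2 fold change of 0.20 (adjusted p = 0.148, edgeR). The summed level of the myelin list ranged from 3738 to 5158 CPM in void-treated mice and from 4653 to 4952 in DHT-treated mice, with void replicate 10 highest of all and void replicate 11 lowest. Void replicate 10 was also the void-treated mouse with the highest Enpp6 and Bcas1, and void replicate 11 the one with the lowest Bcas1 and Gpr17.

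Among ligands and related receptors of PDGFRA and PTPRZ1, 1 of 9 genes rose and 0 fell. In this list and those that follow, the share of all genes that rose was 5.22% and that of genes that fell was 0.261%. Pdgfd, a ligand that acts mainly on the related receptor PDGFRB, averaged 7.01 ± 1.08 CPM in void-treated and 11.1 ± 2.17 CPM in DHT-treated females (SD, n = 5 each), for a fitted log2 change of 0.66 with an adjusted p of 0.0247 (edgeR). Pdgfd was not called without void replicates 10 and 11 or DHT replicates 1 and 3, each left out alone, with adjusted p values up to 0.0920. DESeq2 also called Pdgfc, a PDGFRA ligand, as did edgeR with GC content offsets (adjusted p = 0.0371 and 0.0365). In edgeR without the offsets Pdgfc had a log2 fold change of 0.28 (adjusted p = 0.0551). Pdgfa, the progenitor mitogen, had a log2 fold change of 0.18 (adjusted p = 0.369), and the receptor Pdgfrb one of 0.03 (adjusted p = 0.936).

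In the BMP pathway, 2 of 24 genes rose and 0 fell, against 5.22% and 0.261% of all genes, and both are ligands. Bmp6 averaged 11.8 ± 3.94 CPM in void-treated and 25.8 ± 3.83 CPM in DHT-treated females (SD, n = 5 each), for a fitted log2 change of 1.13 with an adjusted p of 0.00965 (edgeR). Its lowest DHT-treated mouse exceeded its highest void-treated mouse. Bmp6 was called in all 10 fits that left out a mouse, but not once the choroid plexus level was a covariate (0.67 on the log2 scale, adjusted p = 0.701, edgeR). With that covariate no gene of the whole table passed. Bmp7 averaged 9.57 ± 2.70 CPM in void-treated and 15.7 ± 2.30 CPM in DHT-treated females (SD, n = 5 each), for a fitted log2 change of 0.71 with an adjusted p of 0.0444 (edgeR). Bmp7 was called only without void replicate 9 or DHT replicate 2, and its adjusted p otherwise rose to between 0.0599 and 0.129. Smad6, a feedback inhibitor of BMP receptors, and Id3, a BMP target, did not pass in edgeR with all 10 mice and no GC content offsets (log2 fold changes 0.75 and 0.45, adjusted p = 0.0796 and 0.0923). Both passed with DESeq2 and with the offsets (adjusted p = 0.0151 and 0.0356, edgeR). Of the 10 fits that left out a mouse, Id3 passed in 2 and Smad6 in 0. With the offsets Chrd, which encodes the BMP antagonist chordin, was called lower (log2 fold change -0.26, adjusted p = 0.041, edgeR), where it had -0.21 and an adjusted p of 0.321 without them.

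Among inhibitors of differentiation, 2 of 11 genes rose and 0 fell, against 5.22% and 0.261% of all genes. Notch2 averaged 44.5 ± 3.77 CPM in void-treated and 64.5 ± 8.90 CPM in DHT-treated females (SD, n = 5 each), for a fitted log2 change of 0.53 with an adjusted p of 0.0104 (edgeR) and was called in all 10 fits that left out a mouse. Hey2, a Notch target of vessels and other cells, rose from 4.57 ± 0.843 to 7.09 ± 0.897 CPM (SD, n = 5 each), with a log2 fold change of 0.63 and an adjusted p of 0.0209 (edgeR). Hey2 was not called without void replicates 10, 11 and 4 or DHT replicates 1 and 3, each left out alone, with adjusted p values up to 0.0758. Notch1, Hes5 and the other members did not pass. Of 12 lecticans, link proteins and the proteases that cut versican, 1 rose. Adamts1 averaged 31.4 ± 4.98 CPM in void-treated and 42.5 ± 3.80 CPM in DHT-treated females (SD, n = 5 each), for a fitted log2 change of 0.44 with an adjusted p of 0.0332 (edgeR), and it was called in 4 of 10 fits that left out a mouse, with adjusted p values up to 0.111 without void replicates 10, 11 and 4 or DHT replicates 1, 3 and 5.

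**Figure D5:**
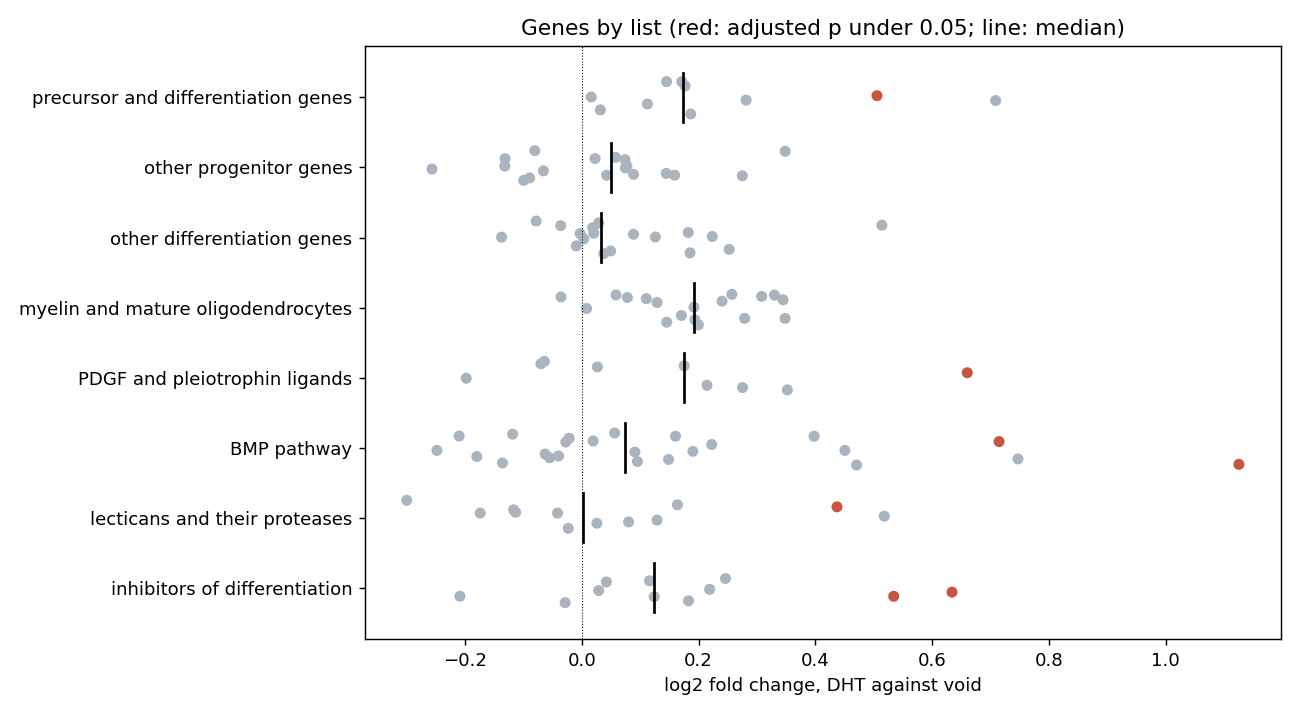
Log2 fold change (DHT against void) of each gene of the lineage lists and the signalling lists, 1 point per gene, red where the adjusted p is under 0.05, with a black line at each list's median. The precursor and differentiation genes and the myelin genes have medians of 0.17 and 0.19, and the called genes of the other lists are Pdgfd, Bmp6, Bmp7, Adamts1, Notch2 and Hey2.

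Among markers of other cells of the dissected tissue, those of choroid plexus and microglia differed between the groups as sets. Of 12 choroid plexus markers all had a log2 fold change above 0, 5 passed, and their summed level was 121 to 1918 CPM with void and 2242 to 3172 with DHT, with none of the 12 at 0. Of 10 microglia markers 8 passed upward, and their sum was 463 to 560 CPM with void and 684 to 1066 with DHT. Of 10 astrocyte markers Gfap alone passed (log2 fold change 1.18), and with GC content offsets also Aqp4 (adjusted p = 0.0345, edgeR). Of 10 fibroblast markers Igf2 alone passed (1.68), with 5 above 0 and 5 below. Of 4 tested markers of peripheral glia, which also express Sox10, Pmp22 alone passed (0.41), with 3 above 0 and 1 below. The summed astrocyte, fibroblast and peripheral glia levels did not differ beyond the mouse-to-mouse spread (exact permutation p = 0.286, 0.810 and 0.135, two-sided). None of 10 neuron, 8 endothelial, 8 mural or 6 neuroblast and cycling-cell markers passed in edgeR without GC content offsets, with 0, 0, 0 and 4 at an unadjusted p under 0.05. With the offsets Tubb3, a neuron marker, was called lower (adjusted p = 0.0175, edgeR), and of these lists DESeq2 called Mki67 higher and Dcx and Neurod1 lower. With the choroid plexus level as a covariate, the log2 fold change of Enpp6 was 0.38 (adjusted p = 0.853, edgeR) and that of Bmp4 was 0.94 (adjusted p = 0.797). That of Pdgfra was 0.19 (adjusted p = 0.797, edgeR), against 0.02 without the covariate. The Enpp6 to Pdgfra ratio was not fitted with it. With the covariate the log2 fold changes of Pdgfd, Adamts1 and Hey2 were 0.43, 0.24 and 0.34, and like that of Bmp6 these were moves of more than 1.5 times. In that fit 0 of all genes passed, 1159 had an unadjusted p under 0.05, and the covariate differs between the groups. The part of microglia in these results was not tested.

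Each gene was also compared with all others by the Pearson correlation of log2 CPM over the 10 mice, centred on the group means, as a description. The genes most alike were picked out of all genes tested with 10 mice, which by itself gives high r values, and no test was run. The genes most like Sox10 were Nkx6-2 (r = 0.986, Spearman's rho = 0.891), Pdlim4 (0.985 and 0.988) and Lmf1 (0.978 and 0.830), and those most like Olig1 were Bin1 (0.985 and 0.939), Mrpl52 (0.982 and 0.794) and Fbf1 (0.981 and 0.879). Those most like Enpp6 were Brca1 (0.888 and 0.855) and Bfsp2 (0.871 and 0.794), and those most like Pdgfra were 4930500F10Rik (0.965 and 0.939) and Arsi (0.952 and 0.952). The 3 genes most like Bmp4 included Bgn and Folr2. Sox10 and Olig1 had an r of 0.98 with each other, whereas Sox10 and Pdgfra had an r of -0.17. Bmp4 had an r of -0.26 with Enpp6, 0.11 with Gpr17 and 0.02 with Bcas1. Its r was 0.42 with Pdgfra, 0.56 with Vcan and 0.60 with Ptprz1, and -0.41 with Olig1, -0.25 with Olig2 and -0.31 with Sox10. Which cells the Bmp4 reads came from was not tested. All of these points share the libraries whose GC content effects are given above.

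Total counts ranged from 27188854 to 47113661 with void and from 33523527 to 45947784 with DHT. The libraries held the hippocampal genes Prox1 (118 to 211 CPM) and Neurod6 (189 to 267 CPM), and mitochondrial genes took 1.53% to 2.39% of counts. The sample names carry S numbers whose meaning is not stated, from 4 to 11 for void and from 18 to 23 for DHT, so what they record and the treatment cannot be told apart.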

How the data were processed

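Hippocampal RNA of 10 mice was sequenced from mRNA libraries, 1 per mouse. The authors trimmed and filtered reads with HTStream, aligned them with STAR 2.7.10b and deposited raw counts per gene, not normalized. The methods name mm10 and the submitters' processing notes name mm39 (GRCm39). The annotation release, the counter's strand setting and its treatment of multi-mapped reads are not given in the sources used here. Of 56884 gene identifiers, 91.3% had a symbol in GENCODE M21, and 51911 carried a later version than in that release, so it was used only for names, exon lengths, GC content and overlaps.

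Samples were grouped by their labels. The quasi-likelihood test of edgeR 4.0.16 (R 4.3.3) was run on the counts after TMM normalization and its expression filter. A standard error is the size of the log2 fold change divided by the root of F. Log2 CPM used a prior count of 2. The test was checked on simulated data. DESeq2 1.42.0, which the study used, was an alternative, as were other normalizations and filters, choroid plexus and fibroblast covariates and leaving out each mouse. GC content offsets in 20 bins were added after seeing the data, with a GC value for 98.1% of the genes tested.

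The 10 genes and the lists were chosen with earlier results of these data known. All 10 were named. Of each lineage or signalling list the called genes were named (at most 6), or the 2 with the lowest p, with up to 3 genes most like each of the 10. Lims2, Pdgfa, Pdgfc, Pdgfrb, Chrd, Smad6, Id3, Prox1, Neurod6 and the marker genes were named in addition.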

Additional observations from a re-analysis of the deposited data

Results flagged for a closer look

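Bcas1 in void replicate 11 stood apart from the other void-treated mice, with a gap to the next mouse of 0.716 of the group's range, just above the limit of 0.71 for 5 mice. It was at 144 CPM there against 185 to 202 CPM in the other 4. In all, 28 groups of 5 mice were screened and 1 stood out, against about 1.4 by chance. The same mouse had the lowest summed myelin level of the 10, and no cause was tested.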

How the results depend on the processing

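No paired analysis was possible because the labels give neither litter nor any pairing of mice. The paper states that the implants were assigned at random among littermates. It also states that mice shared housing within their treatment group, so effects of cage and of treatment cannot be told apart. Of 260 values under alternatives, 210 were counted as the same. For genes and ratios this meant the same direction and the same side of the threshold. For the numbers of called genes it meant a number within a set multiple of 920 higher or 46 lower. Every gene but Enpp6 did not pass with all mice in, so for those genes it meant that they still did not pass. Enpp6 no longer passed with DESeq2 size factors in edgeR (log2 fold change 0.48) or the choroid plexus covariate (0.38). Signs turned for genes that did not pass. For Pdgfra the log2 fold change was -0.0110 with DESeq2, -0.0112 with its size factors and -0.0183 with the fibroblast covariate. With the choroid plexus covariate it was -0.0258 for Olig1, -0.0871 for Olig2, -0.181 for Gpr17 and -0.0665 for Bcas1. With 1 mouse left out the log2 fold change ranged from -0.0321 to 0.0382 for Pdgfra, -0.0483 to 0.0566 for Ptprz1 and 0.427 to 0.625 for Enpp6, and the Bmp4 to Pdgfra ratio from 0.501 to 0.844. Genes lower with DHT, 46, became 224 with DESeq2, 89 with the fibroblast covariate, 293 with GC content offsets, 0 with the choroid plexus covariate, and 5 to 77 with 1 mouse left out. Genes higher, 920, became 0 with the choroid plexus covariate and 351 to 1072 with 1 mouse left out. The cause was not tested. Depth limits Bmp4 most, with 30 reads in void replicate 10.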
